A study of Mus musculus with 33 samples.

Results

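Ribosomal protein genes were followed in bulk RNA sequencing of the mouse nucleus accumbens, a ventral striatal region of the brain. They were chosen by symbol alone. Symbols that start with Rpl or Rps and end in a number with at most 1 of the letters a, x, l or y, together with Rplp0, Rplp1, Rplp2 and Rpsa, were taken as cytosolic. Symbols that start with Mrpl or Mrps and a number were taken as mitochondrial, and pseudogenes were left out. This gave 81 cytosolic genes (49 of the large and 32 of the small subunit) and 77 mitochondrial genes (48 large, 29 small), 158 of the 24061 genes in the count table. Subunits were read from the symbol alone, which need not match the place of every protein. The 33 libraries fall into 6 groups: 5 germ-free (GF) mice, 5 antibiotic-drinking (Abx) mice and 5 water-drinking (H2O) mice that received morphine, and 6 GF, 6 Abx and 6 H2O mice that received saline. All were C57BL/6J. Morphine was given at 20 mg/kg per day for 7 days. The drink of Abx mice held 2 mg/mL neomycin, vancomycin and bacitracin at 0.5 mg/mL each, and the antifungal pimaricin at 1.2 µg/mL. It was started 2 weeks before the experiment, and their microbiome is labelled as depleted. Abx and H2O mice were conventionally raised animals of 7 to 9 weeks from a commercial breeder, with whole cages assigned to a drink. GF mice were of matched age and were bred in isolators of the institution. Germ-free status and breeding site therefore cannot be told apart. Titles number the libraries, and no cage, batch or date is used here, so that p-values measure the spread between these libraries.

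The cytosolic ribosome translates nuclear-encoded mRNAs. Its proteins are made in matched amounts, and their mRNAs typically start with a 5′ terminal oligopyrimidine (TOP) tract, a C followed by a run of pyrimidines, through which mTORC1 and LARP1 set their translation. The mitochondrial ribosome is built from proteins that are encoded in the nucleus and imported. It translates the few mRNAs of the mitochondrial genome, which code for subunits of oxidative phosphorylation complexes. In neurons both ribosomes are tied to synaptic demand, the first through local protein synthesis and the second through respiratory capacity.

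The start sites of members that the results below describe show how such a tract lies, and some members of each family that have or lack it. Each line gives 10 bases before and 20 bases from the annotated RefSeq transcription start (GRCm38.p6), read 5′ to 3′ on the strand of the gene. Capitals mark a C followed by at least 4 bases that are each C or T, starting within 5 bases of the annotated start.
Rpl28, chr7:4792955-4792984, plus strand: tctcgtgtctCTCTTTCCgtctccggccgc
Rpl14, chr9:120571507-120571536, plus strand: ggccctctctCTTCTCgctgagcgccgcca
Rps15a, chr7:118116128-118116157, minus strand: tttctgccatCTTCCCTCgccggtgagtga
Rpl22, chr4:152324426-152324455, plus strand: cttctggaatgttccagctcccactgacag
Rpl22, second start, chr4:152325716-152325745, plus strand: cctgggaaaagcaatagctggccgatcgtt
Rps27, chr3:90213629-90213658, minus strand: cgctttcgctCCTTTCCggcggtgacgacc
Rplp0, chr5:115559457-115559486, plus strand: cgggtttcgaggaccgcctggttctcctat
Mrpl40, chr16:18876618-18876647, minus strand: ctctcggaatcccagacccgcgagttccgg
Mrps25, chr6:92184004-92184033, minus strand: gcctcccaagattcccggagccgcgctggt
Mrpl36, chr13:73330999-73331028, plus strand: tggcgtcccactccactgcgcagacgcgga
Mrps6, chr16:92058326-92058355, plus strand: tcgccgtccgggagctgaccggccgtgttc
Mrpl12, chr11:120484627-120484656, plus strand: gcctcCTCCCggatagagcgtcgcttccgc
The marked tract begins exactly at the annotated start in Rpl28, Rpl14, Rps15a and Rps27, where the run of C and T also reaches upstream of it. In Mrpl12 the marked tract begins 5 bases before the annotated start and ends before it. Rplp0, both starts of Rpl22 and the other mitochondrial members shown have no such tract that begins within 5 bases of the start. Among the 60 cytosolic members matched to the RefSeq table, 13 (21.7%) had a C that begins such a tract exactly at a start and 28 (46.7%) within 5 bases of one. Of 68 matched mitochondrial members, 0 had it at a start and 17 (25%) within 5 bases. Over all 27025 genes of the table the shares were 3.01% and 21.2%. Only the strand of the gene, as printed above, was searched, and annotated starts can differ from those used in this tissue.

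The tissue and the libraries were checked first. All 11 measured markers of medium spiny neurons, the main cell type of the nucleus accumbens, were present, with summed levels of 3413 to 10512 CPM (read counts scaled to a common library size) per library. Between 4.87 and 15.3 M reads per library had been assigned to genes, while the unassigned share was 19.3% to 35.4%. Depth went with germ-free status. Apart from GF saline replicate 1 (15.3 M), GF libraries had 4.87 to 8.13 M reads, and Abx and H2O libraries 9.36 to 15.3 M. Mean shares of reads outside any gene were 13.0% in GF morphine, 12.4% in GF saline and 9.55% to 11.3% in the other groups. The part of these differences in the GF comparisons was not tested. Several libraries stood apart for these genes. In GF morphine replicate 5, 19.8% of the tallied reads had aligned to more than 1 place, against 9.03% to 12.5% in the other GF morphine libraries, and 60 of the 75 cytosolic and 42 of the 77 mitochondrial members tested lay above every H2O saline library. H2O morphine replicate 4 had 69 of 75 cytosolic members below every H2O saline library, and Abx morphine replicates 4 and 5 had 59 each. In GF saline replicate 6, 63 cytosolic and 57 mitochondrial members lay below. GF saline replicate 1 had 15.3 M counted reads, against 4.87 to 8.13 M in the other GF saline libraries, and GF saline replicate 6 had the lowest summed level of either family in its group. Counts of calls that turn on any of these libraries are given with and without them. Members shifted together in these libraries. A count of members by sign or unadjusted p below is therefore not a count of independent observations.

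Cytosolic members were the more abundant family. The 75 that passed the filter on low counts had a median level of 187 CPM, or 229.7 RPKM (reads per kilobase of transcript at the same scaling). Rplp1, an acidic protein of the ribosomal stalk, was the highest per length at 798 RPKM, followed by Rps15 at 626 and Rps29 at 510.1 RPKM. The 77 mitochondrial members all passed and had a median of 29.4 CPM or 22.8 RPKM, with Mrpl30 (73.2 RPKM) and Mrps21 (65.2 RPKM) highest and Mrps35 (3.84 RPKM) lowest. These values rest on 1 annotated transcript per gene, and a long annotated transcript lowers them for Rps15a, Rps20 and Mrps25. Within groups a cytosolic member varied between libraries by a median SD of 0.10 and a mitochondrial one by 0.12 on the log2 CPM scale, against 0.18 over all 14607 genes tested.

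**Figure D1:**
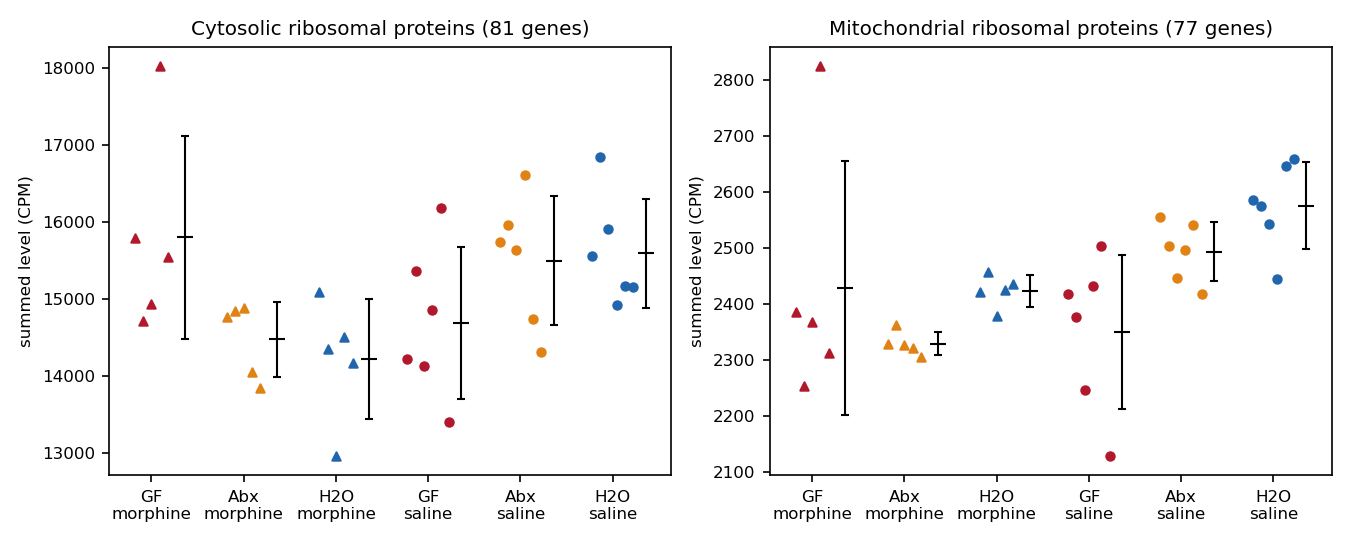
Summed level of each ribosomal protein family in every library (CPM; vertical axes do not start at 0), by group. Points are libraries, triangles morphine and circles saline, and bars are mean ± SD. GF morphine replicate 5 is the highest library of both families, at 18022 and 2824 CPM.

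The filter on low counts left out 6 members, all of them cytosolic. Rpl10l, a testis paralog of Rpl10, and Rpl26, a core protein of the large subunit, had 0 reads in all 33 libraries. Rpl30 had 0 to 5 reads per library, Rpl34 had 1 to 15, and the paralogs Rpl39l and Rpl3l, the second known from striated muscle, had 0 to 3 and 0 to 13. Rps27, a zinc-finger protein of the small subunit, passed with only 1 to 15 reads per library (0.605 CPM), whereas its paralog Rps27l, known as a p53 target, had 8.87 CPM. Rpl26, Rpl30, Rpl34 and Rps27 code for core ribosomal proteins of the same complex as Rpl3, which stood at 624 CPM. The reason for their low counts was not tested.

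Near-identical copies elsewhere in the genome are a known feature of the cytosolic genes. The share of 50-base stretches of a member's transcript that also occur in transcripts of another gene had a median of 44.8% over the 75 cytosolic members tested and 0% over the 77 mitochondrial members. It was 98.6% for Rps27 (9 other genes), 61% for Rpl26 (12), 48.9% for Rpl34 (9) and 29.7% for Rpl30 (16). Over all 81 cytosolic members, the 20 with 70% or more shared had a median of 294 RPKM and the 9 with under 10% a median of 36.8 RPKM. Among mitochondrial members Mrpl53 shared 100% with 1 other gene and Mrpl23 66.7%, and their counts are uncertain.

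**Figure D2:**
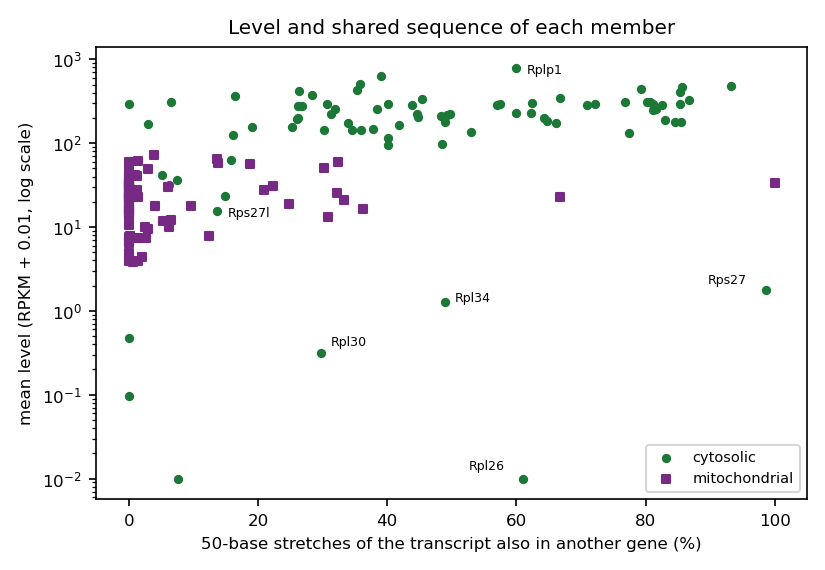
Mean level of each member (RPKM + 0.01, log scale) against the percentage of its 50-base stretches found in transcripts of other genes. Cytosolic members (circles) spread over the whole range of sharing, and Rps27 at 98.6% lies far below the other highly shared members.

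The first comparison, GF saline against H2O saline, asks how expression goes with the absence of a microbiome. Among cytosolic members 13 of 75 fell and 1 rose in GF mice, and among mitochondrial members 26 of 77 fell and 3 rose. Over all genes tested 32.9% were called (18.0% higher, 14.9% lower) by edgeR's quasi-likelihood test at a Benjamini-Hochberg adjusted p of 0.05. The share of members called in either direction was thus below the background for the cytosolic family and close to it for the mitochondrial one, but the direction was uneven: log2 fold changes lay below 0 for 65 of 75 cytosolic and 63 of 77 mitochondrial members, against 48.8% of all genes. The medians were -0.10 and -0.13, against 0.01 for all genes.

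Rpl28, a protein of the large subunit surface, had 110.0, 128.2 and 140.6 CPM (lowest, median, highest) in GF saline and 141.2, 147.4 and 155.5 CPM in H2O saline libraries. All 6 GF libraries lay below all H2O libraries. The log2 fold change was -0.22 ± 0.05 (SE, adjusted p = 0.00101). Rps20, a protein of the small-subunit head, had 110, 127 and 141 CPM in GF and 143, 148 and 157 CPM in H2O libraries, again with no overlap (-0.22 ± 0.06, adjusted p = 0.00455). Rpl29 stood at 94.5, 114 and 121 CPM in GF and at 126, 130.2 and 140.2 CPM in H2O libraries. It fell by 0.23 ± 0.07 on the log2 scale (adjusted p = 0.00941), and Rpl22, an RNA-binding large-subunit protein, fell by 0.20 ± 0.06 with 6 of 6 GF libraries below the H2O range, but did not pass without GF saline replicate 6. Rpl27 (-0.23) and Rpl24 (-0.22) fell with 5 of 6 libraries below that range.

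The single cytosolic member that rose was Rps15a, a small-subunit protein. It had 139, 177 and 186 CPM in GF saline and 136, 152 and 166 CPM in H2O saline libraries (0.19 ± 0.07, adjusted p = 0.0325). In 5 of the 6 GF libraries it lay above the H2O range, and replicate 1 at 139 CPM lay within it. The call was lost without any 1 of 7 libraries, replicates 2, 4, 5 and 6 of GF saline and replicates 3, 5 and 6 of H2O saline. Other core members did not pass: Rplp0, the base of the ribosomal stalk (-0.14, adjusted p = 0.0583), Rpl3, next to the peptidyl transferase centre (-0.05, adjusted p = 0.488), Rps6, the substrate of S6 kinase (-0.07, adjusted p = 0.357), and Rpl39, which lines the exit tunnel (-0.03, adjusted p = 0.791).

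Larger differences were found among mitochondrial members. Mrpl40, a large-subunit protein without a bacterial counterpart, had 23.1, 24.3 and 27.7 CPM in GF saline and 31.1, 33.3 and 36.4 CPM in H2O saline libraries. The groups did not overlap, and the log2 fold change was -0.42 ± 0.07 (adjusted p = 3.14e-05). Mrpl2, whose bacterial homolog lies near the peptidyl transferase centre, had 23.1, 27.9 and 31.5 CPM in GF and 33.1, 36.8 and 40.04 CPM in H2O libraries. It too was lower in 6 of 6 libraries (-0.39 ± 0.07, adjusted p = 0.000266). Mrps28 (-0.48 ± 0.12), Mrpl54 (-0.46 ± 0.10), Mrps18b (-0.39 ± 0.10) and Mrpl53 (-0.38 ± 0.10) fell with overlap between the groups, and so did Mrpl12, known to bind the mitochondrial RNA polymerase (-0.21 ± 0.07, adjusted p = 0.0152), which did not pass without GF saline replicate 6. Mrps12, the counterpart of the bacterial decoding-site protein S12, did not pass (-0.10, adjusted p = 0.451).

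Mitochondrial members that went the other way numbered 3, all of the large subunit. Mrpl35 had 28.1, 31.8 and 38.4 CPM in GF saline and 21.8, 27.03 and 30.4 CPM in H2O saline libraries (0.28 ± 0.09, adjusted p = 0.0135). In GF mice 4 of the 6 libraries lay above the H2O range. Mrpl1 (0.33 ± 0.12) and Mrpl50 (0.15 ± 0.05) rose with adjusted p of 0.0332 and 0.0311. Mrpl35 did not pass without GF saline replicate 4. Mrpl1 was lost without GF saline replicate 4 or 6 or H2O saline replicate 4, 5, 6 or 8, and Mrpl50 without GF saline replicate 2, 4 or 6 or H2O saline replicate 4, 5, 6 or 9.

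The number of cytosolic calls turned on single libraries. The 14 calls became 6 without GF saline replicate 6, 28 without GF saline replicate 5, 8 without H2O saline replicate 4, and 9 without H2O saline replicate 5, GF saline replicate 3 or GF saline replicate 4. Between 22 and 36 mitochondrial members were called when any 1 library was left out, with 36 without GF saline replicate 1. In each of these fits the median of both families was below 0.

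Ribosomal protein transcripts are short, and length and GC content were checked beside this result. Over all genes with a length, log2 fold changes had a Spearman correlation of 0.305 with length and -0.502 with GC content. Among cytosolic members these were -0.115 and -0.383, and among mitochondrial members 0.379 and -0.523. Length and GC content were not fitted apart. The members tested had median transcript lengths of 832 bases (cytosolic) and 1230 bases (mitochondrial), against 2910 bases for all genes with a length. Among the 831 other genes of 500 to 1000 bases the median log2 fold change was -0.15 and 32.9% were called, while the 43 cytosolic members of that length had a median of -0.10 (16.3% called) and the 23 mitochondrial members a median of -0.19 (39.1% called). From 1000 to 2000 bases the medians were -0.11 for 17 cytosolic members, -0.14 for 28 mitochondrial members and -0.10 for 3103 other genes. In a fit with offsets for length and GC content 12 cytosolic members were called, 7 higher and 5 lower, with a median of 0.01, in place of 1 higher and 13 lower. With these offsets Rpl27, Rpl28, Rpl29 and Rps15a no longer passed. Of the 10 mitochondrial calls named above, 8 were lost as well, which were Mrpl2, Mrpl12, Mrpl53, Mrpl54, Mrps18b and all 3 that had risen (Mrpl1, Mrpl35 and Mrpl50). The family then had 3 calls higher and 17 lower. Rps20, Rpl22, Mrpl40 and Mrps28 passed in all 8 alternative fits without a library left out, and Mrpl2 in 6 of 8. The offsets rest on annotated transcripts, which are long for Rps15a and Rps20, and the effect of this on their results was not tested.

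**Figure D3:**
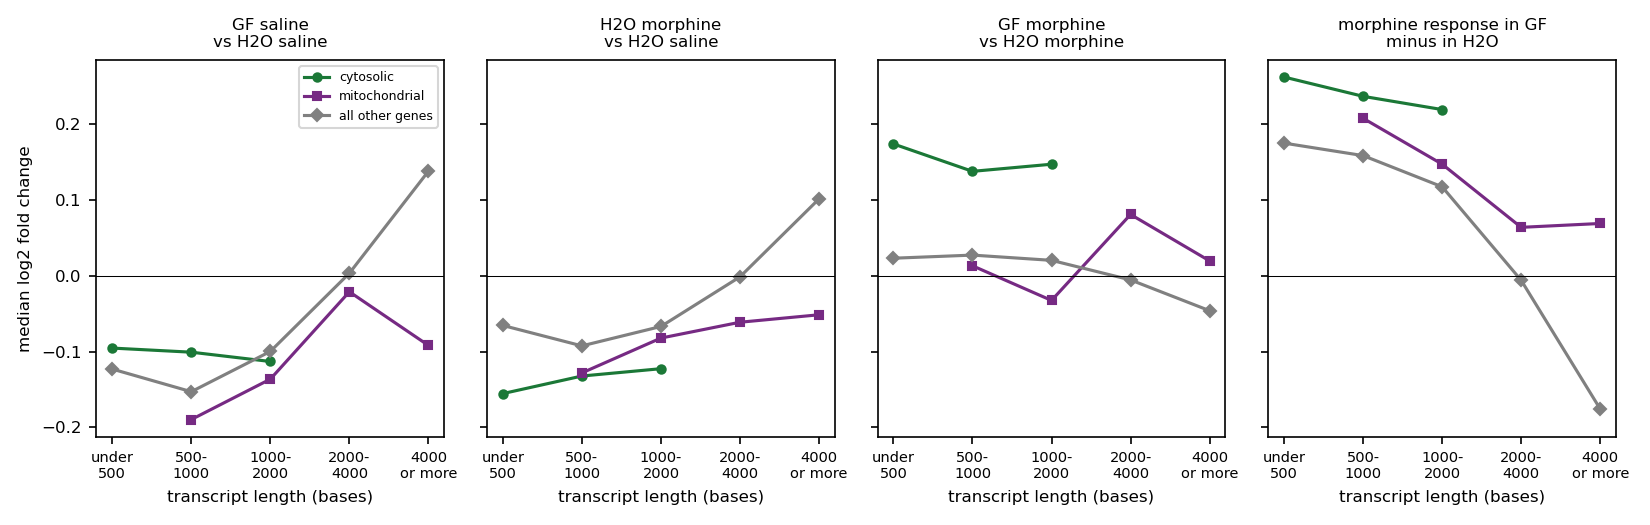
Median log2 fold change by transcript length (bases) for cytosolic members, mitochondrial members and all other genes, in 3 comparisons and 1 difference between comparisons; points need at least 5 genes. In GF saline against H2O saline and in H2O morphine against H2O saline, other short genes lie below 0 as the members do, while in GF morphine against H2O morphine cytosolic members of 500 to 1000 bases (0.14) lie above other genes (0.03).

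Antibiotic treatment alone gave no call in either family. In Abx saline against H2O saline mice 0 of 75 cytosolic and 0 of 77 mitochondrial members passed edgeR's test, where 0.116% of all genes did. At an unadjusted p under 0.05 there were 0 and 10 members, beside 12% of all genes, and DESeq2 called 0 and 1. Without Abx saline replicate 1 edgeR called 1 mitochondrial member. The medians were -0.01 and -0.05. Mrps25, a small-subunit protein specific to mitochondrial ribosomes, was nearest, with 34.0, 37.2 and 41.6 CPM in Abx saline and 41.2, 44.3 and 45.7 CPM in H2O saline libraries. In Abx mice 5 of the 6 libraries lay below the H2O range, but the difference missed the threshold (-0.23 ± 0.06, adjusted p = 0.0980).

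GF saline mice were also set against Abx saline mice. Of the cytosolic members 13 fell and 0 rose, and of the mitochondrial members 14 fell and 3 rose, with medians of -0.10 and -0.08 beside 27.4% of all genes called (14.6% higher, 12.8% lower). At 500 to 1000 bases the medians were -0.11 for cytosolic members, -0.12 for mitochondrial members and -0.11 for other genes. GF saline libraries also serve in the comparison with H2O saline, so both sets of values rest on the same GF mice. Rpl29 (-0.23 ± 0.07) and Rpl22 (-0.22 ± 0.06) fell most among cytosolic members, each with 3 of 6 GF libraries below the Abx range. Rpl18, Rpl24, Rpl10a and Rpl27 fell by 0.19 on the log2 scale, and Rplp0 by 0.15 (adjusted p = 0.0482). Mrpl2 had 23.1, 27.9 and 31.5 CPM in GF saline against 32.4, 38.9 and 41.8 CPM in Abx saline libraries, with no overlap (-0.44 ± 0.07, adjusted p = 0.000110). Mrps9 (-0.33), Mrpl38 (-0.32), Mrps26 (-0.32), Mrps18b (-0.38) and Mrps28 (-0.31) fell as well, while Mrpl1 (0.33), Mrpl35 (0.33) and Mrpl32 (0.28) rose. Rpl27 did not pass without GF saline replicate 6, Rpl18 without GF saline replicate 3 or 6, Rpl24 without those 2, GF saline replicate 4 or Abx saline replicate 4, and Rplp0 without GF saline replicate 3, 4 or 6 or Abx saline replicate 1, 2, 4 or 5. Mrpl32 was lost without GF saline replicate 3 or 4 or Abx saline replicate 3 or 5, Mrpl1 without GF saline replicate 3, 4 or 6 or Abx saline replicate 1, 2, 5 or 6, and Mrps28 without GF saline replicate 1, 3, 5 or 6 or Abx saline replicate 1, 2, 3 or 5. The 13 cytosolic calls became 0 when only both groups were fitted, 3 without GF saline replicate 6, 6 without GF saline replicate 3, 7 without Abx saline replicate 4, 8 without GF saline replicate 4 and 26 without GF saline replicate 5. The 17 mitochondrial calls became 8 with only both groups and 11 without GF saline replicate 3. With offsets for length and GC content 2 cytosolic members were called higher and 8 lower, in place of 0 and 13, and 2 mitochondrial members higher and 11 lower, in place of 3 and 14. Among the genes named, Rpl10a, Rpl18, Rpl27, Rpl29, Rplp0, Mrpl1, Mrpl32, Mrpl35, Mrpl38, Mrps18b and Mrps28 were lost with these offsets.

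Morphine was next set against saline within each microbiome state. In H2O mice 0 members of either family passed edgeR's test, as did 0 of all 14607 genes (0% called). The cytosolic log2 fold changes were nevertheless uneven: 72 of 75 lay below 0, with a median of -0.13, and 42 had an unadjusted p under 0.05, beside 48.2% of all genes below 0 and 15.2% at that p. Of the mitochondrial members 66 of 77 lay below 0 (median -0.09, 13 with an unadjusted p under 0.05). DESeq2 called 7 cytosolic and 0 mitochondrial members, and a fit of only both groups called 11 and 1, all lower. Other genes of 500 to 1000 bases had a median of -0.09, and offsets for length and GC content brought the family medians to -0.05 and -0.03. Without H2O morphine replicate 4 there were again 0 calls, with medians of -0.10 and -0.09.

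Rpl28 had 125, 127, 125, 132 and 128 CPM in the H2O morphine libraries, against 141, 147 and 155 CPM (lowest, median, highest) in H2O saline libraries. The groups did not overlap, and the log2 fold change of -0.21 ± 0.05 had an adjusted p of 0.0653. Rps20 (-0.22, adjusted p = 0.0948) and Rpl31 (-0.23, adjusted p = 0.0941) likewise lay below every H2O saline library in 5 of 5 and did not pass. In all, 16 of 75 cytosolic and 2 of 77 mitochondrial members were separated in this way, beside 2.36% of all genes. The core members Rplp0 (-0.11), Rpl3 (-0.07), Rps6 (-0.14), Mrpl12 (-0.13) and Mrps12 (-0.14) did not pass.

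**Figure D4:**
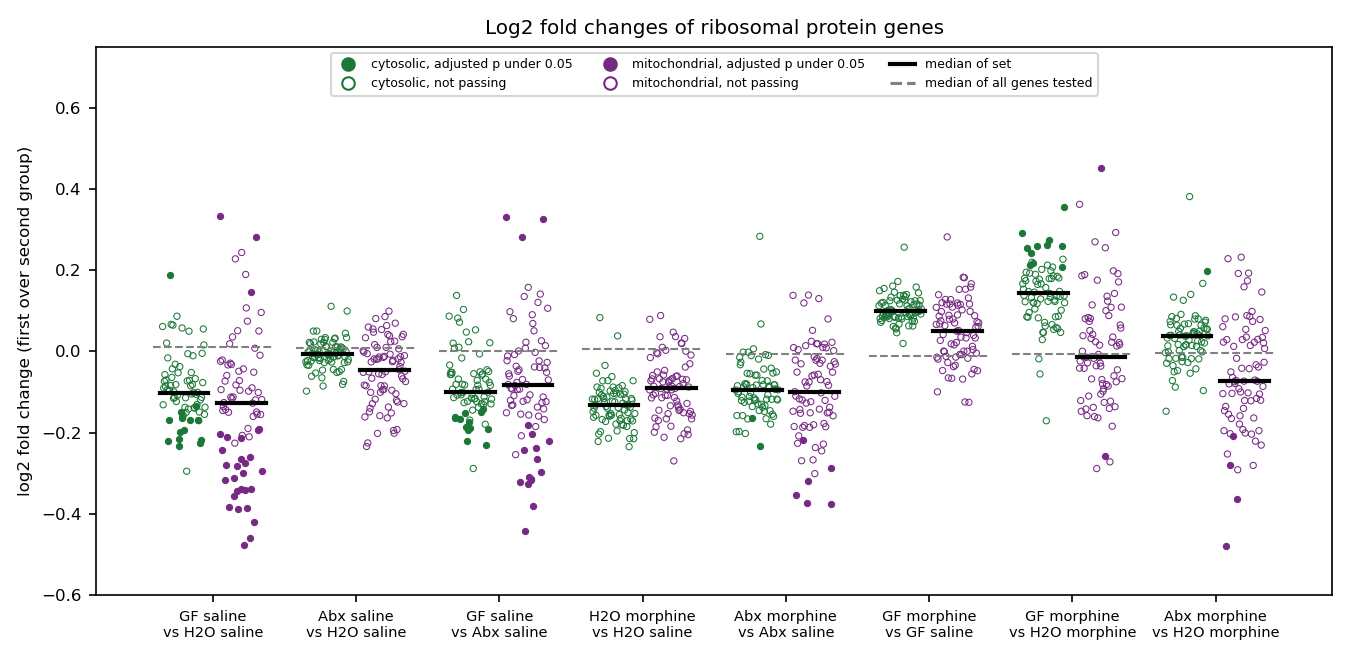
Log2 fold change of each member tested in the 8 pairwise comparisons (Rps27, with 1 to 15 reads, not drawn); filled points passed at an adjusted p of 0.05. Black bars are family medians and dashed lines the median of all genes, and cytosolic medians lie at -0.13 in H2O morphine against H2O saline and at 0.14 in GF morphine against H2O morphine.

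In Abx mice 2 cytosolic members and 6 mitochondrial members fell with morphine and 0 rose, beside 5.42% of all genes called (2.22% higher, 3.20% lower). Rps29, a zinc-binding small-subunit protein, had 170.1, 184, 182, 174 and 168 CPM in Abx morphine libraries, against 179, 211 and 222 CPM in Abx saline libraries. Of the 5 morphine libraries 3 lay below the saline range (-0.23 ± 0.07, adjusted p = 0.0339). Rpl28 fell by 0.16 ± 0.05 on the log2 scale (adjusted p = 0.0466), with 5 of 5 libraries below. The medians were -0.09 and -0.10, and 71 of 75 cytosolic members lay below 0, against 51.5% of all genes. At 500 to 1000 bases the medians were -0.09 for cytosolic members, -0.12 for mitochondrial members and -0.09 for other genes. Both cytosolic calls were lost without any 1 of 8 libraries, which were replicates 1, 3, 4 and 5 of Abx morphine and replicates 1, 2, 3 and 4 of Abx saline. The 2 calls became 1 without Abx saline replicate 5, and with offsets for length and GC content 1 member was called higher and 2 lower. Rpl28 was not among these, and it was also lost with upper-quartile factors and with no filter (adjusted p of up to 0.245 over the 8 alternatives).

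Mitochondrial calls in Abx mice were larger in size. Mrps25 had 27.5, 31.3, 27.3, 29.4 and 31.2 CPM in Abx morphine libraries, against 34.0, 37.2 and 41.6 CPM in Abx saline libraries. No library overlapped (-0.35 ± 0.06, adjusted p = 0.000723). Mrpl24, the counterpart of a bacterial assembly-initiating protein, had 18.4, 19.3, 14.6, 18.8 and 19.8 CPM in Abx morphine, against 22.1, 23.1 and 26.6 CPM in Abx saline libraries. It too was lower in 5 of 5 (-0.38 ± 0.08, adjusted p = 0.00353). Mrpl36, a small protein with a bacterial counterpart (-0.37 ± 0.09), Mrpl34 (-0.32 ± 0.09), Mrpl28 (-0.29 ± 0.08) and Mrpl49 (-0.22 ± 0.06) completed the calls. The 6 calls became 2 without Abx saline replicate 1 or without Abx morphine replicate 1 or 3, and 3 without Abx morphine replicate 5 or Abx saline replicate 5, while Mrps25 and Mrpl24 passed in every fit with 1 library left out. Mrpl36, Mrpl28, Mrpl34 and Mrpl49 were each lost without Abx morphine replicate 1 or 3 or Abx saline replicate 1. Mrpl28 was also lost without Abx morphine replicate 5 or Abx saline replicate 2 or 5, Mrpl34 without Abx morphine replicate 4 or 5 or Abx saline replicate 5 or 6, and Mrpl49 without Abx morphine replicate 5 or Abx saline replicate 4, 5 or 6. Both Mrpl34 and Mrpl49 were lost with offsets for length and GC content.

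In GF mice morphine gave 0 calls in either family by edgeR's test, where 0.00685% of all genes passed. There were 15 cytosolic and 3 mitochondrial members at an unadjusted p under 0.05, beside 6.58% of all genes, and DESeq2 called 0 of each. All 75 cytosolic members tested had a log2 fold change above 0, with a median of 0.10, beside 46.8% of all genes. Cytosolic members of 500 to 1000 bases had a median of 0.10, and other genes of that length 0.06. Mitochondrial members had a median of 0.05. Without GF morphine replicate 5, the library with the raised share of reads aligned to more than 1 place, the medians were 0.05 and -0.02. Rpl3 had 665, 635, 618, 751 and 653 CPM in GF morphine libraries, against 580.2, 597 and 631 CPM in GF saline libraries. Of the 5 morphine libraries 4 lay above the saline range, and replicate 5 was the highest (0.15 ± 0.06, adjusted p = 0.696).

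Among morphine mice GF animals had higher cytosolic levels than H2O animals. Of 75 cytosolic members 11 rose and 0 fell, and of 77 mitochondrial members 1 rose and 1 fell, beside 5.86% of all genes called (3.20% higher, 2.66% lower). The cytosolic log2 fold changes lay above 0 for 71 of 75 members, against 48.6% of all genes, with a median of 0.14. Rpl14, a large-subunit protein, had 228, 218, 238, 272 and 232 CPM in GF morphine libraries, against 188, 176, 186, 196 and 181 CPM in H2O morphine libraries. Every GF library lay above every H2O library (0.36 ± 0.07, adjusted p = 0.00166). Rps29 had 224, 209, 208, 244 and 208 CPM in GF and 204, 189, 162, 179 and 179 CPM in H2O libraries, again without overlap (0.26 ± 0.07, adjusted p = 0.0217). Rpl10 (0.29 ± 0.07), Rps24 (0.27 ± 0.06), Rpl35a (0.26 ± 0.07) and Rpl21 (0.26 ± 0.07) rose with 4 or 5 of 5 libraries above. Rpl3 (0.17, adjusted p = 0.0979) and Rps6 (0.14, adjusted p = 0.193) did not pass.

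The number of these calls depended on 3 libraries and on the fit. The 11 calls became 2 without GF morphine replicate 5, with a median of 0.10, and 3 without H2O morphine replicate 3 or 4. With only both groups fitted 1 member passed, and DESeq2 called 21. Rpl14 passed in all 8 alternative fits and with any 1 library left out, and Rps24 with any 1 left out. Without GF morphine replicate 5 Rpl10, Rpl21, Rpl35a and Rps29 did not pass. Rpl10, Rpl21 and Rpl35a were also lost without H2O morphine replicate 3, Rpl21, Rpl35a and Rps29 without H2O morphine replicate 4, and Rpl35a without GF morphine replicate 3. Other genes of 500 to 1000 bases had a median of 0.03 and 5.42% of them were called, beside 0.14 and 14.0% of the cytosolic members of that length. The mitochondrial median was -0.01. Mrps6 rose, with 24.3, 22.9, 28.3, 32.1 and 21.5 CPM in GF morphine against 18.0, 19.2, 19.2, 18.9 and 19.1 CPM in H2O morphine libraries. The groups did not overlap (0.45 ± 0.11, adjusted p = 0.0115), but it no longer passed without GF morphine replicate 5. Mrps24 fell by 0.26 ± 0.07 on the log2 scale (adjusted p = 0.0281) with 5 of 5 libraries below, and was lost without GF morphine replicate 2, 3 or 6 or H2O morphine replicate 3 or 5. The 2 mitochondrial calls became 1 without GF morphine replicate 2, 3 or 5 or H2O morphine replicate 3 or 5, and 4 without GF morphine replicate 1 or 6. With offsets for length and GC content 1 was called higher and 3 lower.

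Abx morphine mice differed from H2O morphine mice in few members. Of 75 cytosolic members 1 rose and 0 fell, and 0 of 77 mitochondrial members rose and 4 fell, beside 10.3% of all genes called (4.57% higher, 5.76% lower). The cytosolic call was Rpl14, with 202, 209.9, 222, 210.5 and 217 CPM in Abx morphine against 188, 176, 186, 196 and 181 CPM in H2O morphine libraries (0.20 ± 0.07, adjusted p = 0.0480). Every Abx library lay above every H2O library. It no longer passed without any 1 of 9 of the 10 libraries, H2O morphine replicate 5 being the exception. Mrps25 had the smallest adjusted p of any member in the 8 comparisons, with 27.5, 31.3, 27.3, 29.4 and 31.2 CPM in Abx morphine against 42.0, 38.5, 40.7, 43.4 and 40.01 CPM in H2O morphine libraries. Its log2 fold change was -0.48 ± 0.06 (adjusted p = 4.3e-06). Mrpl36 (-0.36 ± 0.10), Mrps14, the counterpart of bacterial S14 (-0.28 ± 0.07), and Mrpl49 (-0.21 ± 0.06) fell as well. Mrpl49 was lost without Abx morphine replicate 1, 3 or 5 or H2O morphine replicate 2, 3, 5 or 6. These H2O morphine libraries also serve in the comparison with GF morphine. The 4 calls became 8 without Abx morphine replicate 2, and with offsets for length and GC content 3 members were called higher and 7 lower.

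**Figure D5:**
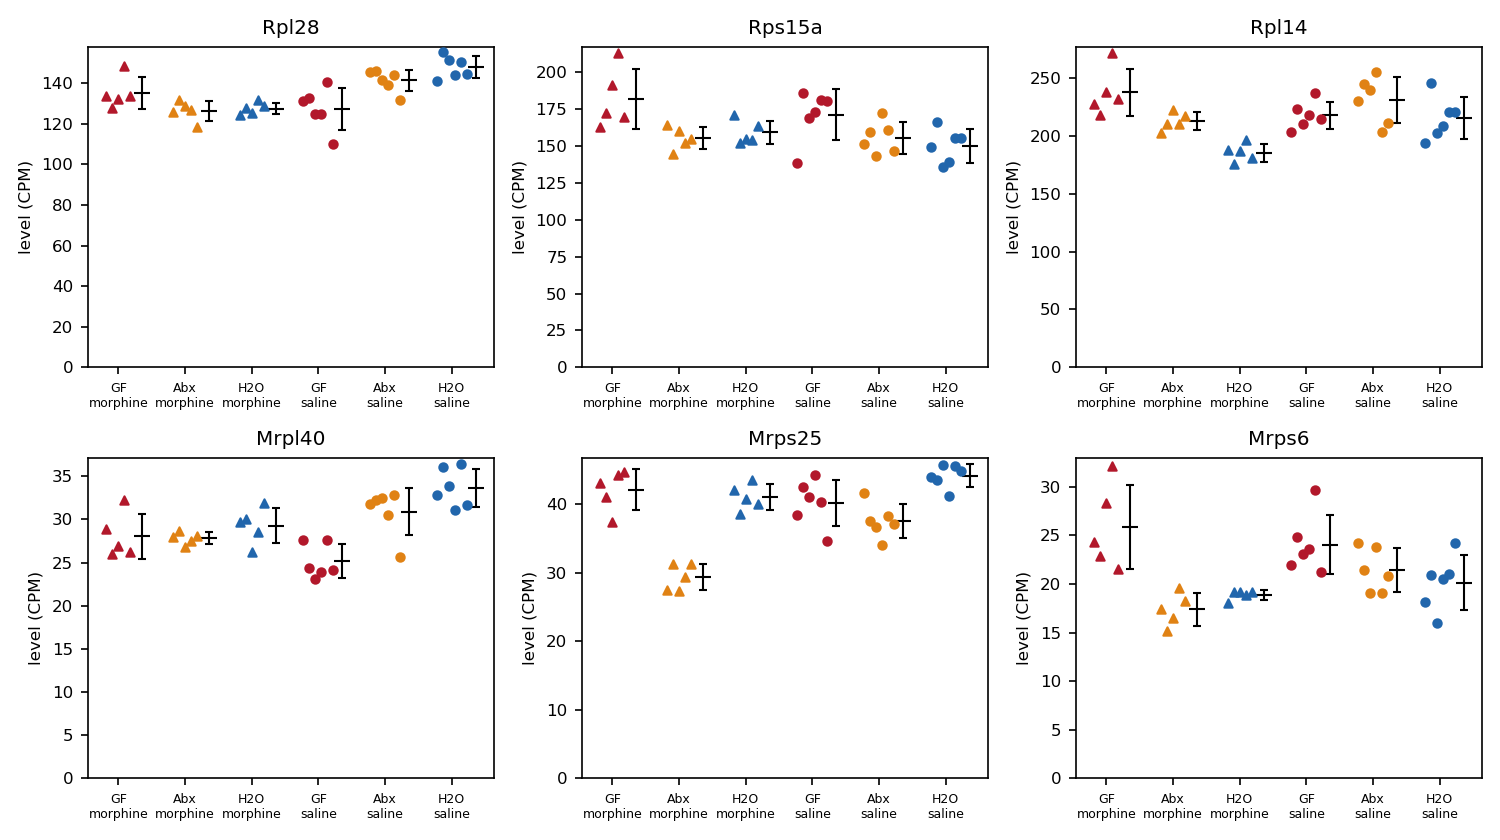
Level (CPM; vertical axes start at 0) of 3 cytosolic and 3 mitochondrial members in every library, by group; bars are mean ± SD. Mrps25 is lowest in Abx morphine libraries (27.3 to 31.3 CPM), and Mrpl40 lowest on average in GF saline libraries (23.1 to 27.7 CPM).

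Whether the response to morphine differed between microbiome states was tested as an interaction. For GF minus H2O mice 0 members of either family passed edgeR's test, and 0% of all genes did. All 75 cytosolic members lay above 0 with a median of 0.24, and 59 had an unadjusted p under 0.05, beside 46.9% and 15.9% of all genes. The smallest adjusted p among them was 0.0692. All members were measured in the same libraries, so their counts are not independent. For mitochondrial members 70 of 77 lay above 0, with a median of 0.14 and 16 at that p. DESeq2 called 18 cytosolic members and 1 mitochondrial member. Other genes of 500 to 1000 bases had a median of 0.16, and with offsets for length and GC content the cytosolic median was 0.09. Without GF morphine replicate 5 the medians were 0.18 and 0.06, and without GF saline replicate 5 edgeR called 6 cytosolic members. It called 1 without GF saline replicate 1 or 2 and 2 without GF morphine replicate 2.

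For Abx minus H2O mice 0 members passed, beside 0.110% of all genes, and DESeq2 also called 0. At an unadjusted p under 0.05 there were 0 cytosolic and 3 mitochondrial members, beside 7.90% of all genes. The medians were 0.04 and -0.01.

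Genes that build or work with ribosomes were counted by the same test. In GF saline against H2O saline mice, where 32.9% of all genes were called (18.0% higher, 14.9% lower), 2 of 6 mitoribosome proteins with other names fell, the small-subunit GTP-binding protein gene Dap3 (-0.18) and the peptide-release factor gene Ict1 (-0.31), and 0 rose. Among 37 cytosolic translation factors 8 rose and 9 fell. The cap-binding factor gene Eif4e rose by 0.19, while the neuronal elongation factor gene Eef1a2 fell by 0.17 on the log2 scale. Of 38 ribosome biogenesis factors 7 rose and 8 fell. Those that fell included the rRNA methyltransferase gene Fbl (-0.34 ± 0.06, adjusted p = 0.000135) and Ubtf, a factor of RNA polymerase I (-0.27). Of 19 regulators of ribosomal protein synthesis 5 rose and 1 fell. Those that rose were the S6 kinase gene Rps6kb1 (0.34 ± 0.08), Rheb (0.23), which codes for an activator of mTORC1, and 3 genes of negative regulators, the translation repressor gene Eif4ebp2 (0.45 ± 0.12), Sesn1 (0.24) and Tsc1 (0.24). The gene that fell was Akt1s1 (-0.32), which codes for an inhibitor in the mTORC1 complex, so that activators and inhibitors were both among the calls. Mtor itself did not pass (-0.07). Of 31 proteasome genes, a housekeeping set of other function, 2 rose and 11 fell, with a median of -0.09.

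In Abx morphine against Abx saline mice 1 of 30 genes of mitochondrial translation rose and 3 fell, beside 2.22% of all genes called higher and 3.20% lower. The list holds tRNA synthetases and RNA-binding proteins beside translation factors. Tufm, the mitochondrial elongation factor Tu gene, fell by 0.48 ± 0.06 on the log2 scale (adjusted p = 5.61e-06) and Mrrf, the ribosome recycling factor gene, by 0.52 ± 0.10. Cars2, a mitochondrial tRNA synthetase gene, fell by 0.33. Guf1, a gene of a translation factor of the elongation family, rose by 0.36. Tufm was also lower in Abx morphine than in H2O morphine mice (-0.54 ± 0.06), and its morphine response differed between Abx and H2O mice (-0.39 ± 0.08, adjusted p = 0.0228 for the interaction). Calls among such genes were not particular to morphine in Abx mice. In GF saline against H2O saline mice Lars2 (0.78) and Guf1 (0.30) were among those that rose. Pars2 (-0.57) and Sars2 (-0.47) were among those that fell, where 32.9% of all genes were called. Other lists also had calls with morphine in Abx mice, such as Gnl2 (0.21) and Nop14 (0.24) higher and Nop16 (-0.28) and Eef1g (-0.28) lower.

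Markers of other cell types moved with some of these comparisons. In GF saline against H2O saline mice, where 18.0% of all genes were called higher and 14.9% lower, endothelial markers summed to 102 to 178 CPM in GF and 184 to 208 CPM in H2O libraries, with 5 of 6 called lower. Cortical glutamatergic markers ranged from 8.73 to 357 CPM in GF saline and from 12.9 to 669 CPM in H2O saline libraries with 0 of 6 called, and 5 of 7 tested pituitary and hypothalamus markers were called higher (sums of 9.05 to 138 CPM in GF and 7.45 to 49.97 CPM in H2O libraries). Of 11 medium spiny neuron markers 3 were called lower. In Abx morphine against H2O morphine mice 7 of 8 microglial markers fell, beside 5.76% of all genes, with sums of 353 to 421 CPM in Abx and 463 to 522 CPM in H2O libraries. Morphine and saline libraries were separated in microglial markers in H2O and Abx mice, but overlapped in GF mice. These markers summed to 463 to 522 CPM in H2O morphine and 528 to 561 CPM in H2O saline libraries, with 0 of 8 called. In Abx mice the ranges nearly met, at 352.6 to 420.8 CPM with morphine and 422 to 509.5 CPM with saline, with 2 of 8 called lower. In GF mice they were 469.2 to 568.9 CPM with morphine and 445.6 to 605.8 CPM with saline. Without morphine, microglial sums in Abx saline libraries (422 to 509.5 CPM) also lay below those in H2O saline libraries (528.5 to 561.3 CPM). Oligodendrocyte markers were separated there too, at 5076 to 5809 CPM in Abx saline and 5825 to 6770 CPM in H2O saline libraries. They ranged from 3709 to 10716 CPM in GF saline libraries. Astrocyte markers overlapped between Abx saline (1641 to 1965 CPM) and H2O saline libraries (1792 to 1941 CPM). Endothelial markers summed to 170.0 to 183.5 CPM in H2O morphine and 183.8 to 207.8 CPM in H2O saline libraries, with 0 of 6 called, while Abx morphine (146.3 to 164.5 CPM) and Abx saline libraries (148.1 to 196.5 CPM) overlapped, with 1 of 6 called lower. Cortical markers stood at 8.76 to 11.9 CPM in GF morphine and at 8.53 to 1172 CPM in H2O morphine libraries. The 4 globin genes of the erythroid list are listed at 0 in every library. The part of cell makeup in the ribosomal results was not tested, and in bulk tissue fewer cells of a type and less RNA per cell cannot be told apart.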

How the data were processed

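RNA of the nucleus accumbens from 33 mice in 6 groups was converted to cDNA with a SMARTer kit, per the labels' protocols. The authors deposited raw read counts per gene, unnormalized whole numbers. FastQC, STAR 2.4.0 and edgeR are named per the submitters' processing notes. The genome build, annotation, strand setting and counting program are details not given in the sources used here. Reads aligned to more than 1 place (9.03% to 19.8% of tallied reads per library) were tallied apart from genes. So were reads ambiguous between genes (1.13% to 1.44%). Counts of members with near-identical copies therefore do not hold these reads. The 5 tally entries of unassigned reads (19.3% to 35.4% of all) were kept out of library sizes, and 27 names turned into dates (at most 0.293% of reads) were kept unnamed.

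Counts were tested with edgeR 4.0.16 (R 4.3.3) by the quasi-likelihood test with TMM factors in 1 fit of 6 group means (27 residual degrees of freedom, biological coefficient of variation 0.128). The filter on low counts (filterByExpr, minimum 10) kept 14607 of 24061 genes, and p-values were adjusted over all of them (Benjamini-Hochberg, threshold 0.05). "Fell", "rose" and "called" refer to this test unless DESeq2 1.42.0 is named. The SE of a log2 fold change is approximate. It was taken as the size of the change divided by the square root of that test's F statistic. CPM values use TMM library sizes. RPKM values and lengths use the GENCODE M21 transcript with the longest coding sequence, available for 99.1% of genes tested. Sharing was counted over 50-base stretches. The fits were tested on simulated data. Alternatives were DESeq2, RLE and upper-quartile factors, no filter, only the groups compared, the replicate number as a block, offsets for length and GC content, both together, and each library left out.

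Replicate numbers did not pair libraries: over 66 pairs of same-numbered libraries the mean correlation of deviations from group means was -0.00346 (-0.503 to 0.496). No 2 replicates were alike within counting noise (smallest chi-square per degree of freedom 3.07). Members and gene lists were chosen with earlier results of these data known. Genes named are, per comparison and family, the 6 higher and 6 lower called members with the largest change (mean of at least 2 CPM), the 3 with the smallest p where fewer than 3 passed, and 8 set members, of which those that add to a result are printed. Protein sequences are not used here. The list of ribosomal proteins outside the symbol rule is not reported here.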

Additional observations from a re-analysis of the deposited data

Results flagged for a closer look

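In 11 of 162 sets of group values tested, the highest or lowest library lay far from the rest of its group by Dixon's criterion, which chance alone meets in about 1 of 20. GF morphine replicate 5 was the library in 3 of them. Its summed mitochondrial level was 2824 CPM (2253 to 2385 CPM in the other GF morphine libraries), its Rpl28 level 148.2 CPM (127.7 to 133.5) and its Mrpl35 level 40.18 CPM (30.01 to 30.87). H2O saline replicate 4 was high in Rplp0 at 261.4 CPM (others 224.5 to 238.0) and in Rps6 at 177.2 CPM (others 158.6 to 165.0). Abx saline replicate 6 was low in Mrpl40 at 25.68 CPM (others 30.47 to 32.78) and high in the rarely counted Rps27 at 1.024 CPM (others 0.4385 to 0.6556). Rps15a stood at 138.7 CPM in GF saline replicate 1 (others 168.9 to 185.8), and Rps29 at 229.9 CPM in H2O saline replicate 5 (others 200.6 to 210.9). Mrps28 stood at 12.75 CPM in H2O morphine replicate 2 (others 10.55 to 11.04), and Mrpl24 at 14.56 CPM in Abx morphine replicate 3 (others 18.44 to 19.80).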

How the results depend on the processing

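Of the 54 named results that passed, 54 passed with DESeq2 and with RLE factors, 52 with the replicate block, 46 with upper-quartile factors, 43 without a filter, 33 with only the groups compared and 28 with length and GC offsets. With these offsets Mrpl50 in GF against H2O saline reversed to -0.0151, and with the block added Mrpl12 reversed to 0.0015. The cause was not tested for these or the values below, except that fitting only the groups compared uses fewer libraries.

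In GF against H2O saline the 14 cytosolic calls became 22 (DESeq2), 25 (upper-quartile), 9 (only the groups compared) and 7 (replicate block with offsets), and the median of -0.10 became 0.0142 (offsets). The 29 mitochondrial calls became 17 and the median of -0.13 became -0.0399 with block and offsets. In Abx against H2O saline DESeq2 called 1 mitochondrial member in place of 0, and the median was 0.0031 with block and offsets. In GF against Abx saline the 13 cytosolic calls became 0 (only the groups compared) and 6 (block with offsets), and the 17 mitochondrial calls became 8 (only the groups compared). For morphine in H2O mice 0 cytosolic calls became 7 (DESeq2) and 11 (only the groups compared), with a median of -0.0540 (offsets), and mitochondrial calls became 1 (only the groups compared), with medians of -0.0346 (offsets) and -0.0217 (block with offsets). For morphine in Abx mice the 2 cytosolic calls became 5 (DESeq2 and only the groups compared) or 1 (upper-quartile, no filter, block with offsets). The 6 mitochondrial calls became 10 (DESeq2), with medians of -0.0533 (offsets) and -0.0598 (block with offsets). In GF against H2O morphine the 11 cytosolic calls became 21 (DESeq2), 7 (upper-quartile and no filter) and 1 (only the groups compared). The 2 mitochondrial calls became 4 (DESeq2 and offsets), 1 (only the groups compared) and 7 (block with offsets). In Abx against H2O morphine the 1 cytosolic call became 0 (upper-quartile, no filter, replicate block) or 3 (offsets), and the 4 mitochondrial calls became 7 (DESeq2), 8 (only the groups compared), 10 (offsets) and 11 (block with offsets). In the interaction of GF and H2O mice 0 calls became 18 cytosolic and 1 mitochondrial (DESeq2), with cytosolic medians of 0.0860 (offsets) and 0.110 (block with offsets). The replicate numbers are shared by name only, and the replicate block alone moved no count of calls by over 1.5 times other than that 1 call to 0.

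With 1 library left out, cytosolic and mitochondrial calls ranged over 6 to 28 and 22 to 36 (GF against H2O saline), 0 and 0 to 1 (Abx against H2O saline), 3 to 26 and 11 to 21 (GF against Abx saline), 0 to 3 and 2 to 9 (morphine in Abx mice), 2 to 15 and 1 to 4 (GF against H2O morphine), 0 to 1 and 3 to 8 (Abx against H2O morphine), and 0 to 6 and 0 (interaction of GF and H2O). The mitochondrial median ranged over -0.02 to 0.07 for morphine in GF mice and over -0.07 to 0.02 in GF against H2O morphine, and the cytosolic median over -0.00029 to 0.06 in Abx against H2O morphine. Rps27 and the 6 members below the filter had 0 to 15 reads per library, at which a difference may not be detectable.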
